A study of Homo sapiens with 14 samples.

Results

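The genes of cholesterol and fatty acid synthesis were described in the RNA-seq data of a study of PAX6, a paired-box transcription factor, in human prostate cancer cell lines. The group holds 32 genes, taken by symbol from the list ACAT2, HMGCS1, MVK, PMVK, MVD, IDI1, FDPS, FDFT1, SQLE, LSS, CYP51A1, TM7SF2, MSMO1, NSDHL, HSD17B7, EBP, SC5D, DHCR7, SREBF1, SREBF2, SCAP, INSIG1, ACLY, ACACA, FASN, SCD, ELOVL5, ELOVL6, STARD4, ABCA1, ABCG1 and SOAT1. All 32 were found among the 44591 genes of the LNCaP table and among the 24199 features of the DU145 table. LNCaP is an androgen-sensitive prostate cancer line, and the LNCaP-ENZ cells were derived from it by 30 days of culture with enzalutamide, an antiandrogen drug, and were kept in 20 µM of the drug. There was 1 library of control LNCaP cells and 1 of LNCaP-ENZ cells. DU145 is a prostate cancer line that grows without androgen. It carried a non-target short hairpin RNA (shCON, 3 libraries) or a hairpin against PAX6 (shPAX6, 3 libraries). Both DU145 groups are stable lentiviral lines. The labels do not say which hairpin each shPAX6 library carries or whether the libraries came from separate cultures, so the p-values given here measure only the spread between libraries.

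Cells build cholesterol from acetyl-CoA. The mevalonate arm makes isoprenoid units, and the squalene and sterol arm joins and cyclizes them and then trims the ring to cholesterol. Fatty acids are built from the same precursor by ACLY, ACACA and FASN and are then desaturated and elongated. Most of these enzymes are targets of the sterol regulatory element binding proteins (SREBPs), which SCAP carries out of the endoplasmic reticulum when sterol is low and which INSIG1 holds back when it is high. Surplus sterol is moved by STARD4, esterified by SOAT1 and exported by ABCA1 and ABCG1. In prostate cells androgens are known to stimulate many of these genes.

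The promoters of 5 members are shown because these genes were among those with the largest differences described below or carry the sterol element itself. STARD4, HSD17B7 and INSIG1 were among the lowest in LNCaP-ENZ, MSMO1 had the largest positive fold change in DU145, and SREBF2 encodes an SREBP. Each sequence is the 190 bases before the RefSeq transcription start, read 5′ to 3′ on the gene's strand, from the RefSeq promoter table of GRCh38.p14, and was placed on GRCh37 by its only exact match. The windows are chr1:162760302-162760491 on the plus strand for HSD17B7, chr5:110848234-110848423 on the minus strand for STARD4 and chr7:155089398-155089587 on the plus strand for INSIG1. Those of MSMO1 and SREBF2 are chr4:166248631-166248820 and chr22:42228919-42229108, both on the plus strand. Capitals mark the NF-Y box CCAAT on either strand, so that ATTGG is the box on the opposite strand, and in SREBF2 also the sterol regulatory element TCACNCCAC.
HSD17B7: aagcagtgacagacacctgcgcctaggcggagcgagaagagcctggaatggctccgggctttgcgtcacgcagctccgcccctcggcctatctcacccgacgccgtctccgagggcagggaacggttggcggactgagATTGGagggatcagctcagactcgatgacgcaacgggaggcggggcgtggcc
STARD4: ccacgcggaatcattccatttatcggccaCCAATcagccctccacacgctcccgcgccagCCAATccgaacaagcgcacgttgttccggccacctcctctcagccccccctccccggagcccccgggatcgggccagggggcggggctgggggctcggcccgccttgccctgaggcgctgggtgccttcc
INSIG1: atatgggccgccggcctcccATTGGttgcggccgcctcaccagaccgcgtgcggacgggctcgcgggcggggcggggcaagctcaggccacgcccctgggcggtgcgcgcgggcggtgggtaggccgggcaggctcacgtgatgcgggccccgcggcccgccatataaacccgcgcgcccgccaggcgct
MSMO1: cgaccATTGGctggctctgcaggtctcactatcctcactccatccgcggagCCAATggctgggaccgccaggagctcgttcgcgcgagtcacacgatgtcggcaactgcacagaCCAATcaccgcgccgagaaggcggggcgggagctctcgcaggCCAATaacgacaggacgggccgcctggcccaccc
SREBF2: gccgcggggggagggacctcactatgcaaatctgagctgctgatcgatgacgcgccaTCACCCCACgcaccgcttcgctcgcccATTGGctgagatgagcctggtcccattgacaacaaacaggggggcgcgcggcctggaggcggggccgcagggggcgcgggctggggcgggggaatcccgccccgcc

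Of the 32 members, 27 were in the promoter table, and their windows ran from 250 bases before to 50 after the start. ACAT2, SQLE, FDFT1, FASN and ABCG1 were not among them. Searched on both strands, CCAAT was found in 21 of the 27 members (77.8%), against 39.7% of all 27305 genes in the table and 42.8% of the 9506 of those genes that were tested in DU145. The GC box GGGCGG, a site of the SP1 type, was found in 25 of 27 (92.6%), against 48.3% of all genes and 78.9% of the tested ones. TCACNCCAC was found in SREBF2 alone (3.7% of the members, against 1.39% of all genes). It began at position −133 relative to the SREBF2 start. These counts describe exact letters in a window and do not show binding, and a missing match does not show that a site is absent. The 3 members at least 2-fold lower in LNCaP-ENZ shown above and MSMO1 all hold CCAAT, as did most members that differed little. SOAT1 and ELOVL5, also at least 2-fold lower, held it too. ABCA1, the lowest member in LNCaP-ENZ, was in the promoter table and had no CCAAT match.

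In LNCaP-ENZ cells the larger differences of the group were all downward. ABCA1, STARD4, HSD17B7, SOAT1, INSIG1 and ELOVL5 were at least 2-fold lower than in control cells, and no member was at least 2-fold higher. Of the 4 genes of sterol transport and storage 3 were among these 6, the 6 fatty acid genes were lower at library-total scaling, and no mevalonate enzyme was past 2-fold. With 1 library per arm there was no replicate check and no test was made. Each ratio is that of CPM, the counts scaled to the library total, plus 0.1, and its 95% exact Clopper-Pearson interval covers counting error only. The 2 libraries held 20468001 and 17945722 counts.

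Of the 4 transport and storage genes 3 were lower. ABCA1, the exporter of cholesterol to apolipoprotein A-I (chr9:107543283-107690527, GRCh37), had 111 counts in LNCaP and 19 in LNCaP-ENZ, a log2 ratio of −2.25 (−3.14 to −1.65). With so few counts the size depends on the pseudocount, and it was −1.64 with a pseudocount of 1. STARD4, a soluble sterol carrier (chr5:110831731-110848295), had 693 and 219 counts, a log2 ratio of −1.46 (−1.70 to −1.25). SOAT1, which esterifies cholesterol for storage (chr1:179262849-179327815), had 1114 and 413 counts, a log2 ratio of −1.24 (−1.41 to −1.08). The carrier, the esterifying enzyme and one exporter were therefore all more than 2-fold lower. ABCG1, the other exporter, was on the opposite side, at 254 against 289 counts, a log2 ratio of 0.37 (0.13 to 0.62). The 4 genes had a median log2 ratio of −1.35.

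Among the SREBP regulators INSIG1 stood apart. INSIG1, itself a classical SREBP target (chr7:155089482-155101945), had 4911 counts in LNCaP and 1891 in LNCaP-ENZ, a log2 ratio of −1.19 (−1.26 to −1.11). SREBF1, the SREBP of fatty acid genes, went from 16489 to 12145 counts, or −0.25 (−0.29 to −0.22). SREBF2, the SREBP of sterol genes, went from 10049 to 6601 counts, or −0.42 (−0.46 to −0.37). Both were thus lower at library-total scaling, but by far less than INSIG1, and the interval of SCAP included 0 (0.02, −0.05 to 0.10). The intervals do not cover the choice of scaling. With TMM scaling, which moved the median of all genes to −0.0083, SREBF1 was at −0.11, SREBF2 at −0.27, SCAP at 0.17 and INSIG1 at −1.04.

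The squalene and sterol arm was uneven. HSD17B7, a keto-reductase of the sterol ring (chr1:162760492-162782608), went from 1147 to 372 counts, or −1.43 on the log2 scale (−1.61 to −1.26). Its 2 annotated pseudogenes held 38 and 28 counts, so few reads were assigned to them, although the counting rule for shared reads is not given in the sources used here. FDFT1, the squalene synthase at the entry to the arm, was next, at 6967 against 3814 counts, a ratio of −0.68 (log2, −0.74 to −0.62). SQLE, LSS, CYP51A1, SC5D and MSMO1 lay between −0.36 and −0.18. NSDHL, EBP and DHCR7 were higher, at 0.35 (0.09 to 0.61), 0.23 (0.13 to 0.32) and 0.12 (0.05 to 0.19), and the interval of TM7SF2 included 0. With TMM, TM7SF2 was at 0.22 and MSMO1 at −0.04. The arm as a whole had a median of −0.27, with 7 of 11 genes lower (63.6%, against 62.3% of all genes).

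All 6 fatty acid genes were lower, with a median of −0.45, although FASN and ACACA were slightly above 0 with TMM (0.02 and 0.08) and with the other scalings that move the median gene to about 0. ELOVL5, an elongase of polyunsaturated fatty acids (chr6:53132196-53213977), went from 4436 to 1919 counts, or −1.02 on the log2 scale (−1.10 to −0.94). SCD, the stearoyl-CoA desaturase and the member with the highest level per length in LNCaP, went from 348 to 183 TPM, or 37289 to 18219 counts, a log2 ratio of −0.84 (−0.87 to −0.82). FASN, the fatty acid synthase, was the member of the third highest level and differed little, with 145 and 126 TPM, 24067 and 19370 counts, and −0.12 on the log2 scale (−0.15 to −0.10). SREBF1, the second, had 166 and 132 TPM. ACLY, ELOVL6 and ACACA had log2 ratios of −0.49, −0.40 and −0.07. The desaturase SCD and the elongase ELOVL5 therefore differed much more than the synthase FASN and the carboxylase ACACA.

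The mevalonate arm had a median of −0.17 and no gene past 2-fold. FDPS, the farnesyl diphosphate synthase, was at −0.46 (−0.59 to −0.34) and IDI1, the isopentenyl diphosphate isomerase, at −0.44 (−0.63 to −0.26). MVD and HMGCS1 were lower by less, and the intervals of ACAT2, MVK and PMVK included 0. With TMM, HMGCS1 was at −0.02, MVK at 0.22 and ACAT2 at 0.29. FDPS has 10 annotated pseudogenes, which held 67 and 58 counts.

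**Figure D1:**
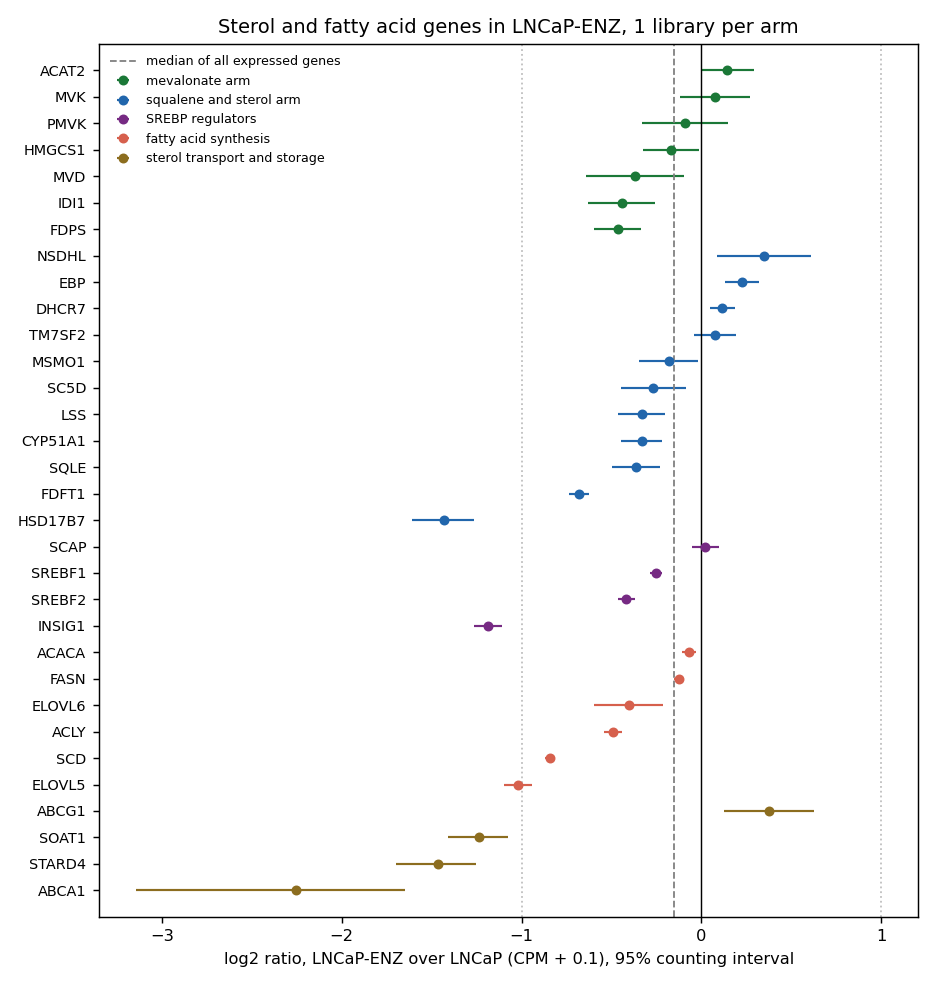
The plot gives the log2 ratio of LNCaP-ENZ over LNCaP (CPM + 0.1, horizontal axis) for the 32 members, coloured by role, with 95% counting intervals as bars, 1 library per arm. The dashed line is the median of all 14767 expressed genes (−0.15), the dotted lines mark 2-fold, and the 6 members left of the lower dotted line are HSD17B7, INSIG1, ELOVL5, SOAT1, STARD4 and ABCA1.

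The counts of members were read against the whole table. Of 14767 genes with a mean of at least 1 CPM, 9.57% were at least 2-fold lower in LNCaP-ENZ and 1.84% at least 2-fold higher, while 6 of the 32 members (18.8%) and 0 of 32 were. At 1.5-fold the members did not stand out, since 8 of 32 were lower, the same 6 with SCD and FDFT1, against 24.1% of all genes. A log2 ratio below 0 was seen in 24 members (75.0%) and in 62.3% of all genes, and the medians were −0.33 and −0.15. The scaling moved these splits: 21 of 32 members were below 0 with TMM factors, 20 with DESeq2 size factors and 27 with the deposited TPM. It also moved the median of all genes, to −0.0083, 0.018 and −0.23 in that order, so these counts cannot be set against the 62.3%. The members that changed side were HMGCS1, MVK, PMVK, TM7SF2, SCAP, ACACA and FASN. ELOVL5 was under 2-fold, at −0.87, with TMM. The members held 146941 of the LNCaP counts (0.718%) and 96356 of the LNCaP-ENZ counts (0.537%).

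Markers of the luminal prostate cell moved in the same libraries. The secreted and membrane proteases KLK3, KLK2 and TMPRSS2 had log2 ratios of −0.43, −1.18 and −1.68, while FOLH1, the prostate-specific membrane antigen, was at 0.14. Their part in the differences of the lipid genes was not tested. The 4 fibroblast markers summed to 24.0 CPM in LNCaP and 16.0 CPM in LNCaP-ENZ. Most of this was COL1A1, at 456 and 231 counts, with PDGFRB at 36 and 57 counts and COL1A2 and DCN at 0 in both libraries. The 4 leukocyte and 4 adipocyte markers summed to at most 3.79 CPM, with ADIPOQ and LEP at 0.

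Of 37 further genes of the same pathways, 34 passed the same filter, with a median log2 ratio of −0.18 and 26 lower (76.5%, against 62.3% of all genes). Of these 5 were at least 2-fold lower (14.7%, against 9.57%) and 0 at least 2-fold higher, and 4 of the 5 are acyl-CoA handling or elongation enzymes. Those 4 came from the further genes of fatty acid synthesis and activation, which made up 16 of the 34. In that list 3 genes were above 0. ELOVL3 was at 0.75 (0.43 to 1.10), the highest of the 34, TECR at 0.20, and ELOVL1 at 0.02 with an interval that included 0. ELOVL7, an elongase, had 678 and 107 counts (−2.45). The acyl-CoA synthetases ACSL4, ACSL3 and ACSL1 had 254 and 62 (−1.82), 1207 and 425 (−1.31) and 6589 and 2838 counts (−1.02). LBR, a sterol reductase of the nuclear envelope, had 1274 and 519 counts (−1.10). ACSL1 was the smallest of the 5 and was named after its value was seen, as were ELOVL3, TECR and ELOVL1.

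In DU145 cells the knockdown was first read from PAX6 itself. PAX6 stood at 0.839, 1.23 and 1.57 FPKM in the shCON libraries and at 0.0153, 0.274 and 0.0778 FPKM in the shPAX6 libraries, a log2 fold change of −2.69 ± 0.49 (SE). Every shPAX6 library was below every shCON library, and the adjusted p was 0.054 (limma, Benjamini-Hochberg over all 13574 features tested). PAX6 was itself low. In shPAX6 libraries 1 and 3 it was under the 0.1 FPKM added before taking logarithms, so the size of the fold change depends on that pseudocount. It passed the filter of a mean of at least 0.5 FPKM through its shCON levels.

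No member passed the adjusted threshold of 0.05 in DU145. The largest positive fold changes were those of MSMO1 and SC5D, enzymes of the sterol ring, and the largest negative ones among the members tested were those of the SREBP genes SREBF2 and SREBF1. The filter of a mean of at least 0.5 FPKM kept 30 members and left out ABCA1 and ABCG1. By limma on log2(FPKM + 0.1), on which scale all DU145 fold changes are given, 0 of 30 were called higher and 0 of 30 lower, against 0.177% and 1.02% of all features. At an unadjusted p under 0.05 the members numbered 2 higher (4.15% of all features) and 2 lower (14.1%). The fold change was above 0 for 16 of 30 members (53.3%), against 37.1% of all features, and the medians were 0.0015 and −0.12. With each library centred on its median, which moved the median of all features to 0.06, 20 of 30 members were above 0.

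The sterol arm lay on the positive side, with 9 of 11 genes above 0 and a median of 0.11. CYP51A1 and DHCR7 were above 0 by less than 0.01, and 7 genes were above 0 after a correction for GC content and 6 without shPAX6 library 2 or without library 3. MSMO1, the methylsterol monooxygenase (chr4:166248818-166264316, GRCh37), was at 23.2, 20.8 and 20.3 FPKM in shCON and at 28.2, 37.8 and 35.2 FPKM in shPAX6. All 3 shPAX6 libraries were above all 3 shCON libraries, and library 1 was the lowest of them. The log2 fold change was 0.64 ± 0.15 (SE; adjusted p = 0.092, limma).

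SC5D, the sterol desaturase that acts near the end of the arm (chr11:121163388-121184119), was at 17, 13.2 and 13.9 FPKM in shCON and at 17.6, 28.2 and 21.7 FPKM in shPAX6. The groups did not overlap, but shPAX6 library 1 was only just above shCON library 1. The log2 fold change was 0.59 ± 0.20 (adjusted p = 0.19, limma). Without shPAX6 library 1 both genes passed the threshold, MSMO1 at 0.77 (adjusted p = 0.013, limma) and SC5D at 0.76 (adjusted p = 0.038, limma).

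HSD17B7 and ACAT2 were the other members whose shPAX6 libraries all lay above the shCON libraries, at 0.24 and 0.22, which makes 4 of 30 with groups apart in that direction (6.70% of all features). Neither passed an unadjusted 0.05. HSD17B7 thus had a positive value in DU145 and was among the lowest members in LNCaP-ENZ. In the same arm TM7SF2 (−0.41) and LSS (−0.30) were the members below 0, and both overlapped between groups. The sterol arm held FDFT1, the second highest member in DU145, at 249.1, 250.5 and 231.9 FPKM in shCON and 228.9, 286.1 and 280.6 FPKM in shPAX6 (0.11, groups overlapping).

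Of the 4 SREBP regulators 3 had negative fold changes. SREBF1 (chr17:17714663-17740325) was at 23.29, 24.97 and 29.89 FPKM in shCON and at 16.06, 16.12 and 19.59 FPKM in shPAX6. The groups did not overlap, and the log2 fold change was −0.59 ± 0.16 (SE; adjusted p = 0.11, limma). It overlaps RAI1 on the other strand, and the strand setting of the quantification is not given in the sources used here.

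SCAP and SREBF2 lie outside the naming rule and were singled out after their values were seen. SCAP was at 19.76, 20.03 and 24.04 FPKM in shCON and at 13.96, 16.33 and 16.21 FPKM in shPAX6, again with no overlap, and had a log2 fold change of −0.45 ± 0.15 (adjusted p = 0.18, limma). With SREBF1 it made 2 of 30 tested members lower with groups apart, against 20.0% of all features. SREBF2 had the largest negative value among the 30 tested members, −0.62 ± 0.28 (adjusted p = 0.29, limma), but its groups overlapped, with 68.9, 66.7 and 81.0 FPKM against 30.2, 67.1 and 50.3. Without shPAX6 library 2 it passed the threshold at −0.88 (adjusted p = 0.048, limma), and without library 1 it was at −0.31 (adjusted p = 0.24, limma). INSIG1, in contrast to LNCaP-ENZ, was at 0.23.

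**Figure D2:**
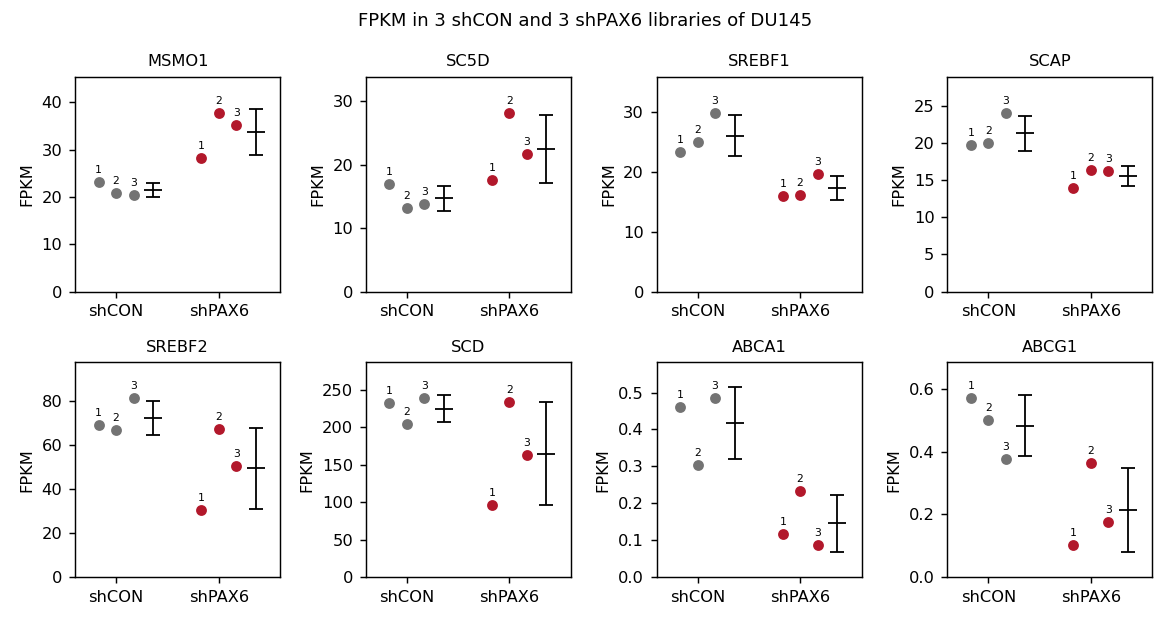
FPKM (vertical axes, from 0) of 8 members in 3 shCON (grey) and 3 shPAX6 (red) libraries of DU145, numbered as in the labels, with the mean and SD beside the points. The groups are apart for MSMO1, SC5D, SREBF1, SCAP, ABCA1 and ABCG1 and overlap for SREBF2 and SCD, whose shPAX6 libraries are widely spread.

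The fatty acid genes had the largest median SD of log2 values between shPAX6 libraries (0.58). The 2 tested genes of transport and storage were close (0.56), and the median over all features was 0.36. SCD was at 233, 204 and 239 FPKM in shCON and at 96.7, 235 and 163 FPKM in shPAX6, so that library 2 lay within the shCON range and library 1 was far under it. Its log2 fold change was −0.54 ± 0.30 (adjusted p = 0.40, limma). Levels in library 2 exceeded those in library 1 by 2.52-fold for ACLY, 2.42-fold for SCD, 2.32-fold for FASN, 2.11-fold for ELOVL5, 2.03-fold for ELOVL6 and 1.40-fold for ACACA. Tested members of other roles reached similar ratios, with STARD4 at 2.49, HMGCS1 at 2.31, SREBF2 at 2.22 and SQLE at 2.04. All 6 fatty acid genes had the same order, library 1 under library 3 under library 2. Their summed level was 525, 475 and 558 FPKM in shCON and 249, 580 and 429 FPKM in shPAX6. Library 1 was thus under every shCON library and library 2 above every one, and no fold change among the 6 genes passed the threshold (−0.54 to 0.37).

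This order of libraries was not particular to lipid genes. It held for 19 of 30 members (63.3%) and for 46.8% of all features. Library 2 was above library 1 for 23 members (76.7%) and for 61.6% of all features. These libraries differed by at least 1.5-fold, either way, for 17 members (56.7%) and for 54.6% of all features. The SD of the log2 values was larger in shPAX6 than in shCON for 28 of 30 members (93.3%) and 84.3% of all features. The mevalonate genes mostly ran the other way, with MVK, PMVK, MVD and FDPS highest in library 1. Over 12009 features with an annotated transcript, each library's deviation from the shCON mean was set against transcript length. Spearman's rho was −0.47, 0.42 and −0.13 in shPAX6 libraries 1, 2 and 3, and −0.60, 0.35 and −0.25 among the 30 members. The part of transcript length in these orders was not tested. FDPS, the highest member of all in DU145, was at 440.7, 451.6 and 437.7 FPKM in shCON and at 510.8, 349.5 and 451.9 FPKM in shPAX6, a log2 fold change of −0.04 ± 0.17. Its shPAX6 libraries lay on both sides of the shCON libraries.

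**Figure D3:**
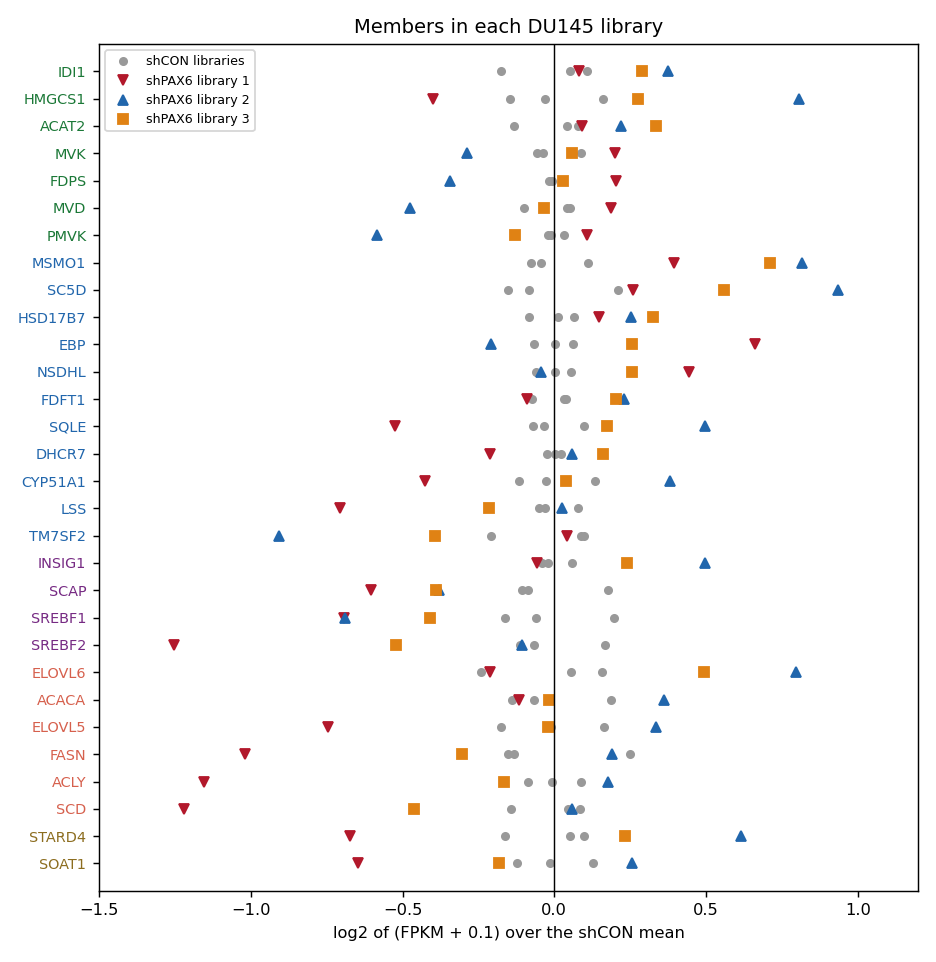
For each of the 30 tested members the plot gives log2 of FPKM + 0.1 in each DU145 library over the shCON mean (horizontal axis), with shCON libraries as grey circles and shPAX6 libraries 1, 2 and 3 as downward triangles, upward triangles and squares. Gene names are coloured by role, and all 6 fatty acid genes (red names) run from library 1 on the left through library 3 to library 2 on the right.

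ABCA1 and ABCG1 were near the lower end of detection in DU145, and their values were described after they were seen. ABCA1 was at 0.461, 0.305 and 0.485 FPKM in shCON and at 0.116, 0.234 and 0.0867 FPKM in shPAX6. ABCG1 was at 0.5702, 0.4998 and 0.3769 FPKM in shCON and at 0.1012, 0.3634 and 0.1752 FPKM in shPAX6. Both exporters were lower in every shPAX6 library than in any shCON library, narrowly so for ABCG1. Of all tested features 20.0% were apart in this direction, a share that leaves out these exporters because they failed the filter. In a fit with no filter their log2 fold changes were −1.10 (adjusted p = 0.19, limma) and −0.97 (adjusted p = 0.29, limma). STARD4 (0.06) and SOAT1 (−0.19), 2-fold lower or more in LNCaP-ENZ, had groups that overlapped in DU145.

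The GC content of a gene's transcript moved with its fold change in DU145. Over the 30 members Spearman's rho between GC content and log2 fold change was −0.65, a description across genes measured in the same libraries. MSMO1 and SC5D are at 37.4% and 36.9% GC, and SREBF1 and SCAP at 63.2% and 61.7%. Over 12009 features with an annotated transcript, the deviation of single libraries was related to GC content in most libraries and least in shPAX6 library 1. The rho was −0.60, 0.35 and 0.22 in shCON libraries 1, 2 and 3 and 0.08, −0.64 and −0.34 in shPAX6 libraries 1, 2 and 3. Among the 30 members it was −0.89, 0.45 and 0.54 in shCON and −0.07, −0.87 and −0.65 in shPAX6. After a correction for GC content the log2 fold changes were 0.45 for MSMO1 and 0.40 for SC5D, −0.38 for SREBF1 and −0.26 for SCAP, and only MSMO1 and SC5D of these 4 stayed under an unadjusted 0.05. The part of GC content in the differences was not tested beyond this correction.

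**Figure D4:**
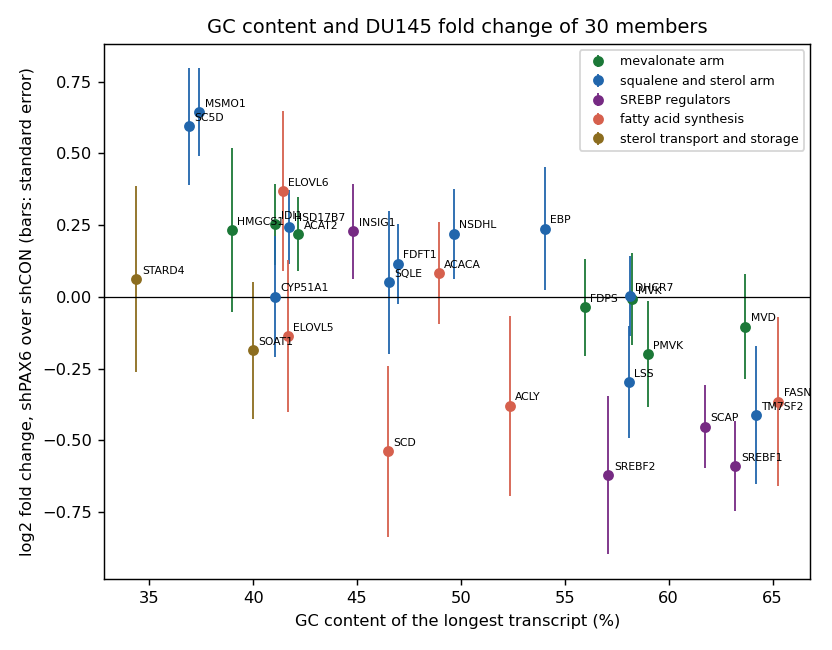
The plot sets the log2 fold change of shPAX6 over shCON (vertical axis, bars: standard error from limma) against the GC content of the longest annotated transcript (horizontal axis, percent) for the 30 tested members, coloured by role. MSMO1 and SC5D sit at the upper left and SREBF1 and SCAP at the lower right (Spearman's rho −0.65).

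The luminal markers KLK3, KLK2, TMPRSS2 and FOLH1 were at or near 0 FPKM in DU145. Epithelial markers were present, with a summed level of 1525 to 1654 FPKM in shCON and 1135 to 1816 FPKM in shPAX6. CDH1 was lower in shPAX6 (−2.28, adjusted p = 0.033, limma). EPCAM was at −0.75 (adjusted p = 0.054, limma) with groups apart, while KRT8 (−0.28) and KRT18 (0.07) overlapped between groups. The leukocyte markers summed to at most 0.083 FPKM. Whether the change in CDH1 had a part in the lipid gene values was not tested.

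Of the 37 further pathway genes 36 were tested in DU145 and 0 passed the adjusted threshold (limma). At an unadjusted 0.05, 1 of 36 was higher and 8 were lower, against 4.15% and 14.1% of all features. The groups were apart and higher for ME1, which supplies NADPH for fatty acid synthesis (0.41), and apart and lower for 9 genes, all named here after their values were seen. Over all features the groups were apart and higher in 6.70% and apart and lower in 20.0%, so the 9 of 36 are near the background. The 9 were MBTPS1, the protease that cleaves SREBPs, ACSS2, FADS2, FADS3, SCD5, LPCAT3, STARD3, OSBP and SCARB1. LPCAT3, a liver X receptor target, had the largest value of them (−1.26, adjusted p = 0.16, limma).

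The values of the 2 cell lines were set side by side for the 30 members tested in both. Of these, 11 were below 0 in both comparisons, 4 were above 0 in both, 12 were below 0 in LNCaP-ENZ and above 0 in shPAX6, and 3 were the reverse. Spearman's rho across the genes was 0.03. SCD, SREBF2, SREBF1 and ACLY were on the lower side in both lines, and HSD17B7, INSIG1 and MSMO1 were on opposite sides. Neither direction was tested in LNCaP and no member was called in DU145, so these are positions of point estimates. Levels per length were more alike, with a rho of 0.61 over 32 genes between LNCaP TPM and the shCON mean FPKM, and SCD was among the 3 highest in both lines. The labels describe more than one library kit without saying which was used for which line, and the part of the kit in the levels was not tested.

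**Figure D5:**
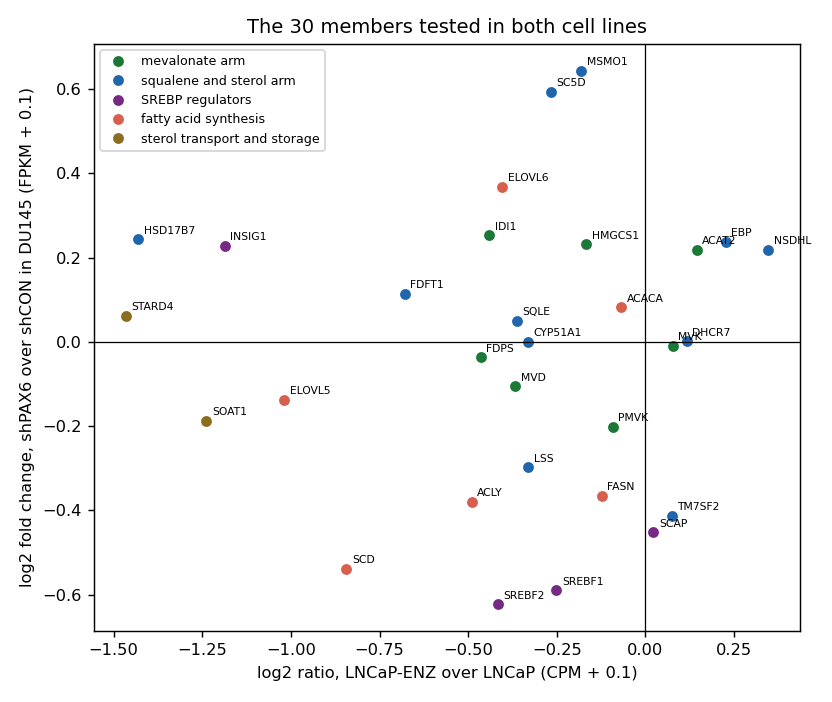
Each point is 1 of the 30 members tested in both lines, coloured by role, with the log2 ratio of LNCaP-ENZ over LNCaP on the horizontal axis and the log2 fold change of shPAX6 over shCON in DU145 on the vertical axis. The points show no common trend (Spearman's rho 0.03), and 12 of them lie in the upper left, lower in LNCaP-ENZ and higher in shPAX6.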

How the data were processed

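RNA-seq was done on 8 libraries: 1 each of LNCaP and LNCaP-ENZ, and 3 each of shCON and shPAX6 in DU145. ATAC-seq libraries of the series were not used here. Per the study's methods, the authors aligned reads to GRCh37/hg19 with HISAT2 and quantified them with StringTie. Versions and the strand setting are not given in the sources used here. For LNCaP the authors deposited raw read counts and TPM per gene. For DU145 the deposited values carry no unit name. They were treated as FPKM made by the authors, since StringTie gives FPKM and the columns are neither whole numbers nor of equal total, and their depth is therefore unknown.

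The LNCaP comparison used CPM of the counts with a pseudocount of 0.1 and genes with a mean of at least 1 CPM. It has no test, and the 95% Clopper-Pearson intervals cover counting error only. A total of 3 counts, the limit that a count of 0 allows, equals 0.147 and 0.167 CPM in the 2 libraries. RN7SK took 12.3% and 13.0% of the counts. DU145 was fitted with limma 3.58.1 (R 4.3.3) with an intensity trend on log2(FPKM + 0.1) over all 13574 features with a mean of at least 0.5, two-sided, with Benjamini-Hochberg adjustment. With 3 libraries against 3 an exact permutation test cannot go below 0.10. TMM factors came from edgeR 4.0.16 and size factors from DESeq2 1.42.0, for scaling only. GC content and gene positions come from GENCODE lifted to GRCh37, and the corrections are loess fits per library. The scripts were tested on simulated data.

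Values per library are given for members past the adjusted threshold or with groups apart and a log2 fold change of at least 0.58 in DU145, members past 2-fold in LNCaP, and the 3 highest members in each line. Of the further pathway genes, those past either threshold are named, at most 4 in each direction. Members and lists were chosen with earlier results of these data known. Same-numbered DU145 libraries were not treated as pairs. Some luminal marker genes are not reported here.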

Additional observations from a re-analysis of the deposited data

How the results depend on the processing

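The count of members at least 2-fold lower in LNCaP-ENZ was 5 or 6 under every alternative at 2-fold and 8 at 1.5-fold, and none was at least 2-fold higher. No library could be left out in LNCaP. The members' median log2 ratio moved from −0.33 to −0.18 with the median of all genes set to 0, −0.18 with TMM and −0.16 with DESeq2 size factors. The first shift takes the median of all genes (−0.15) off every ratio. It was thus fixed in advance and leaves the members' distance from that median unchanged. Counts of all genes at least 2-fold higher (271) and lower (1413) became 143 and 911 with a pseudocount of 1, 2090 and 4030 with no filter, 98 and 776 with at least 5 CPM, and 958 and 3554 at 1.5-fold. The higher count was 417 with the median set to 0, 407 with TMM and 442 with DESeq2 size factors, which left 905 lower.

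In DU145 1 member was called higher with median centring (MSMO1, adjusted p = 0.0496, limma) and 1 with a length correction (SC5D, adjusted p = 0.033, limma), the latter added after seeing the data. Leaving out 1 library gave 0 to 2 members higher and 0 to 1 lower. All features called higher and lower (24 and 139) ranged from 0 to 200 and 0 to 720 when 1 library was left out, the most without shPAX6 library 1 (200 and 720) or 2 (187 and 716). They numbered 74 higher with quantile normalization, 2 and 15 at a threshold of 0.01, and 113 and 555 with the length correction, and the lower count was 90 with no filter, 72 with median centring and 82 with a GC correction. Quantile normalization gave 162 lower and median centring 28 higher, so the split depended on the scaling. The replicate block gave 0 and 0, also with the GC correction, and 1568 features at an unadjusted 0.05 against 2480. Deviations of same-numbered libraries had correlations of −0.17, −0.37 and 0.05, against −0.19 to 0.37 for libraries of unlike number. The labels give only a number. These correlations cannot decide whether libraries were paired, since deviations within a group depend on each other. ELOVL5 was positive with median centring (0.039), STARD4 negative with the GC correction (−0.17, with or without the block), and FDPS positive with median centring (0.14) and the GC correction (0.088, with or without the block). Leaving out 1 library took ELOVL5 from −0.38 to 0.16, STARD4 from −0.22 to 0.43, SOAT1 from −0.41 to 0.041 and FDPS from −0.16 to 0.12. The cause was not tested. Depth limits ABCA1 in LNCaP-ENZ (19 counts), and ABCA1 and ABCG1 were under 0.5 FPKM on average in DU145.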
